A study of Homo sapiens with 6 samples.

Results

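Gene deserts are long stretches of a chromosome without any protein-coding gene. They are poor in G and C, rich in old transposable elements, replicate late and are mostly silent, and many of them lie beside genes of neural adhesion or of development, whose distant enhancers some deserts hold. A pull-down of a chromatin-bound RNA recovers DNA from everywhere at a low level, so deserts, with no promoter and no exon to bind, are a useful place to look at what a peak list holds away from genes. The peaks described here were those of chromosomes 1 to 22 whose midpoint lay more than 500 kb from the body of every protein-coding gene, outside every long noncoding RNA (lncRNA) gene, and more than 3 Mb from a centromere. There were 2614 such peaks among 36484 autosomal peaks in 4 lists, at 2237 different positions.

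The lists came from chromatin isolation by RNA purification with sequencing (ChIRP-seq) in HCT116 cells, a line from a human colorectal carcinoma, used here unmodified as far as the labels say. Biotinylated antisense DNA oligos against the lncRNA CRLM1 (gene LINC01767) pulled down the RNA with crosslinked chromatin, oligos against the bacterial LacZ RNA, which the cells lack, served as the negative control, and Input was genomic DNA without pull-down. Each of the 3 groups had 2 biological replicates, 6 libraries in all, and the authors called the peaks of each CRLM1 pull-down against the Input and against the LacZ library of the same number. The 4 lists are named R1/Input, R1/LacZ, R2/Input and R2/LacZ, for the replicate and the control. The lists of 1 replicate therefore share their pull-down library, and those of replicates 1 and 2 share none. Each peak has a score from the peak caller on a scale that the files do not state. No list falls under a score of 50. The files hold no read counts, so the depth of the libraries is unknown.

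The rule left 151 Mb of desert territory, which was 5.49% of the 2756 Mb of sequenced autosomal bases. It lay in 261 deserts with a median span of 562 kb, and the widest reached 3.801 Mb. These spans leave out the 500 kb next to each flanking gene, so the stretches without a protein-coding gene are longer. Peaks were found in 205 of them. The 56 deserts with no peak in any list held 3.27 Mb of territory in all. Some were covered by lncRNA genes and held no territory, such as the FANCL-BCL11A desert with a span of 1.21 Mb. The most territory among them, 0.811 Mb, lay between TMEM121 and the end of chromosome 14. The rule counted only genes annotated as protein-coding or lncRNA. Immunoglobulin gene segments, which are annotated as types of their own, therefore did not exclude territory there. No midpoint of a desert peak lay in an annotated small RNA gene, but such genes make up only 0.0113% of the territory. At most 1.01% of a list lay in a pseudogene, against 1.21% of the territory.

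At 7 desert sites a peak of R1/Input overlapped a peak of R2/Input. This was 1.01% of the desert peaks of R1/Input, below the 1.66% of all its autosomal peaks. Whether peak density and width alone would give as many overlaps was not tested. The sequences of 4 of these sites follow, read from the GRCh38 reference on the plus strand. They are the sites where neither peak held short sequences found at many places on the autosomes. Capitals mark the bases inside the peaks of both replicates, and lower case marks flanking bases. The remaining sites are described with these further on.
chr1:82869470-82869669, ADGRL2-TTLL7 desert: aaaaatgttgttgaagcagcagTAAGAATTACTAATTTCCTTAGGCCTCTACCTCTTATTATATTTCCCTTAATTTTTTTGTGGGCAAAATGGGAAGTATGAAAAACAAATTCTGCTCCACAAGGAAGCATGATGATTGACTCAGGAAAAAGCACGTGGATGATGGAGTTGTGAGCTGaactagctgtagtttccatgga
chr2:13394719-13394981, TRIB2-LRATD1 desert: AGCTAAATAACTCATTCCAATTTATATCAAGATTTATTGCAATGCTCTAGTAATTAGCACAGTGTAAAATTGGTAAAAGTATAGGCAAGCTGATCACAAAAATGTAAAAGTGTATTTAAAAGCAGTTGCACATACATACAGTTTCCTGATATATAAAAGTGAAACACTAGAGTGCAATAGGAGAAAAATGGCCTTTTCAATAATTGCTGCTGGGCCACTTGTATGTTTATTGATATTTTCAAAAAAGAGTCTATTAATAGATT
chr2:35259723-35260022, FAM98A-CRIM1 desert: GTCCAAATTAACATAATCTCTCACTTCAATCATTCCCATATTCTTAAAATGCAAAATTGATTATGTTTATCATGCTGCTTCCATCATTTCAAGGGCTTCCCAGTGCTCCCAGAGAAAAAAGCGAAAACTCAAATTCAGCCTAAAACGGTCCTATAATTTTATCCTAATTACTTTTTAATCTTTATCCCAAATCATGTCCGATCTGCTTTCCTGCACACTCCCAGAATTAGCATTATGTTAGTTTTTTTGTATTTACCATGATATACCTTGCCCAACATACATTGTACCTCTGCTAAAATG
chr21:24231111-24231383, NCAM2-MRPL39 desert: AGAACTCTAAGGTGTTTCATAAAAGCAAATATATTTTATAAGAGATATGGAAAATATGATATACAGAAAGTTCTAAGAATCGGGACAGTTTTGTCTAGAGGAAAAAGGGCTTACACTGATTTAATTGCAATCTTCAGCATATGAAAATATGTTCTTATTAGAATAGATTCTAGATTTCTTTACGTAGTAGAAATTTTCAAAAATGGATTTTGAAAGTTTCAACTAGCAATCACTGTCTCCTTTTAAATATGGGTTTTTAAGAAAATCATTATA

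The first question was how large a share of each list lay in deserts. Of the autosomal peaks of R1/Input, 690 of 9251 were desert peaks, 7.46% (95% Clopper-Pearson interval 6.93 to 8.01). In R2/Input they were 1379 of 16638, 8.29% (7.87 to 8.72). Both shares lay above the 5.49% of bases that the deserts make up, by 1.36 times (1.26 to 1.46) and 1.51 times (1.43 to 1.59). Against LacZ, the share was 531 of 10234 peaks in replicate 1, 5.19% (4.77 to 5.64), and 14 of 361 in replicate 2, 3.88% (2.14 to 6.42). These shares were 0.945 times (0.868 to 1.03) and 0.706 times (0.389 to 1.17) the share of bases, and both intervals include 1. The mean ratio over the 2 replicates was 1.43 ± 0.107 (SD, n = 2) against Input and 0.826 ± 0.169 (SD, n = 2) against LacZ. The intervals cover counting error of peaks only and say nothing of the spread between cultures. With 2 replicates an exact permutation test that flips signs can reach no p below 0.5, so no test was run.

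Scores of desert peaks lay close to those of the other peaks. Their median score was 56.24 in R1/Input, where the other autosomal peaks had 56.06. The medians were 57.94 and 57.97 in R1/LacZ, 57.70 and 57.73 in R2/Input, and 55.42 and 56.02 in R2/LacZ. Each difference was small beside the spread within its list. In R1/Input the middle 50% of desert scores ran from 52.56 to 62.44. Median widths were 381, 390, 401 and 598.5 bp, in the same order of lists, against 390, 395, 402 and 506 bp for the other peaks. Scores of at least 100 were reached by 8 desert peaks (1.16%) and 2.38% of the other peaks in R1/Input, and by 19 desert peaks (1.38%) and 1.66% of the others in R2/Input. Against LacZ the share in replicate 1 was 1.88% in deserts and 2.05% elsewhere, and no desert peak of replicate 2 reached that score.

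Peak density was then followed outward from the genes, always outside lncRNA genes and centromere margins. In R1/Input it was 2.59 peaks per Mb within 50 kb of a protein-coding gene, 3.69 at 50 to 100 kb, 3.86 at 100 to 250 kb and 4.53 at 250 to 500 kb. Within the deserts it was 4.53 at 500 to 750 kb, 5.11 at 750 to 1000 kb and 4.14 beyond. In R2/Input the density went from 5.41 per Mb within 50 kb to 7.78 at 250 to 500 kb and 9.40 at 500 to 750 kb, and was 8.48 beyond 1000 kb. Replicate 1 against LacZ had 3.96 peaks per Mb next to genes and 3.43, 3.93 and 3.27 in the desert bands. In both Input-called lists most of the climb thus lay outside the deserts, and no further climb was seen past 1000 kb. Of the desert peaks, 27.4%, 28.1% and 28.1% of these 3 lists, in the order given at the start, lay more than 1 Mb from a gene, as did 30.1% of the territory.

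**Figure D1:**
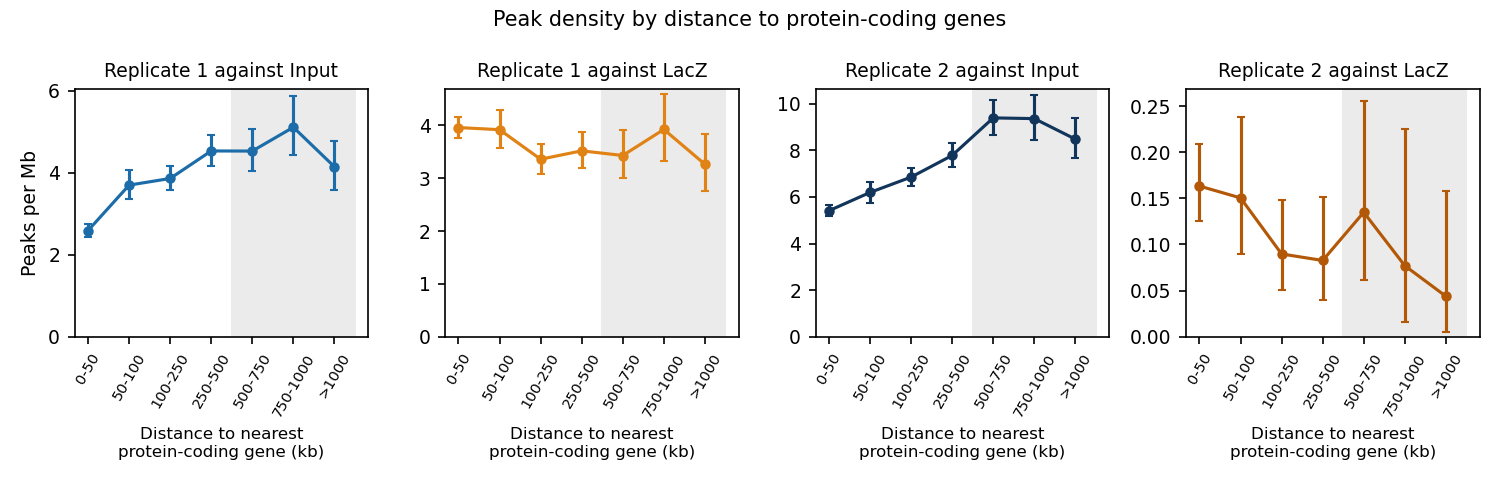
Peaks per Mb (y axis) by distance of the peak's midpoint to the nearest protein-coding gene in kb (x axis), 1 panel per list with its own y axis, points with exact 95% Poisson intervals, and the desert bands shaded. Against Input the density went from 2.59 to 4.53 per Mb in replicate 1 and from 5.41 to 9.40 in replicate 2 between the first band and the first shaded band, while the LacZ-called lists show no such climb.

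The limit of 500 kb cut through a continuous range. In R1/Input the closest desert peak lay 500576 bp from a gene with a score of 51.72, and the farthest peak left out lay at 499730 bp with a score of 60.82. The corresponding pair was 500829 bp (64.58) and 499971 bp (59.41) in R1/LacZ. It was 500323 bp (54.45) and 499714 bp (50.73) in R2/Input, and 500543 bp (53.82) and 479188 bp (57.81) in R2/LacZ.

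Peak density was also set beside base composition. Desert territory had a median GC of 35.3% over windows of 400 bp, and the rest of the autosomes 40.3%. In both Input-called lists the density of peaks outside deserts differed with local GC. In replicate 1 it was 5.41 per Mb where the surrounding 10 kb had under 35% GC and 1.52 where they had over 41%, and in replicate 2 it was 8.998 and 4.41. In R1/LacZ it was 3.75 and 3.95. When desert peaks were set against the number that the density of other peaks at the same local GC would give, an alternative added after seeing the data, the ratio in R1/Input was 0.946 (690 peaks against 729), below 1. In R2/Input it was 1.18 (1379 peaks against 1172). It was 0.969 in R1/LacZ and 0.636 in R2/LacZ. With GC classes of 1 point and centromere margins left out, the Input-called ratios were 0.917 and 1.13. Within the 5 GC classes, from the lowest to the highest GC, the desert density of R1/Input was 0.848, 1.04, 1.01, 0.9204 and 1.699 times that of the rest. These values rested on 299, 215, 115, 39 and 22 desert peaks and have no intervals, so they do not settle a direction for each class. The highest class takes in all GC above 41%, so desert and rest need not have the same GC inside it. The part of GC in the ratios was not tested beyond these values.

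**Figure D2:**
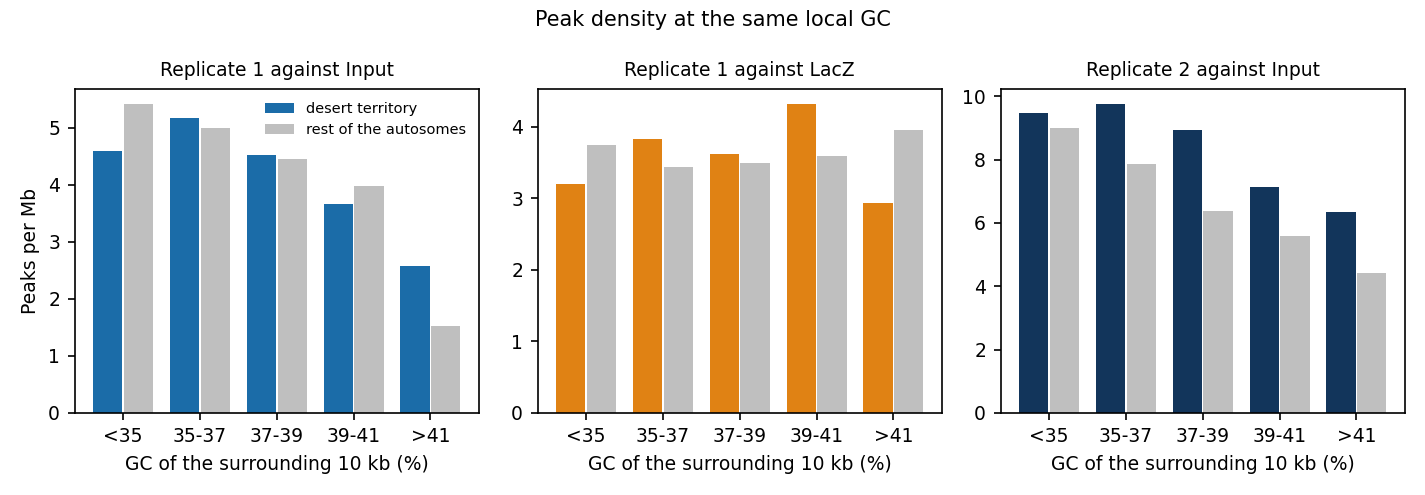
Peaks per Mb (y axis) in desert territory (coloured bars) and in the rest of the autosomes (grey bars) by the GC percent of the surrounding 10 kb (x axis), 1 panel for each of the 3 longer lists. In R1/Input the coloured bar stands at 4.59 and the grey bar at 5.41 under 35% GC, whereas in R2/Input the coloured bar is the higher one in all 5 classes.

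GC of the peaks was close to that of their deserts or above it. The median GC of desert peaks was 36.0% in R1/Input, 36.9% in R1/LacZ, 35.3% in R2/Input and 36.7% in R2/LacZ. These medians lay 0.746, 1.64, 0.0314 and 1.45 points above that of the territory. In R2/Input the sign turned, to -0.297 points, when the distance to genes was set to 250 kb. Outside deserts the medians of the Input-called peaks lay 2.14 and 1.05 points below that of the rest of the autosomes.

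Set against their own surroundings, the ratios of the Input-called lists lay closer to 1, and those of the LacZ-called lists did not. The density of non-desert peaks within 5 Mb of each desert would have given 613 desert peaks in R1/Input and 1100 in replicate 2, where 690 and 1379 were found, ratios of 1.13 and 1.25. The ratios were 0.936 and 0.6499 for the LacZ-called lists of replicates 1 and 2. With each peak set against the territory share of its own chromosome, the ratios were 1.31, 0.970, 1.46 and 0.762 for R1/Input, R1/LacZ, R2/Input and R2/LacZ. Of the 19 chromosomes with at least 1 Mb of territory, 18 had a ratio above 1 in R1/Input and 19 in R2/Input, but 8 in R1/LacZ. The 1 chromosome below 1 in R1/Input was chromosome 4, which holds the most territory (22.2 Mb), with 0.9503.

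**Figure D3:**
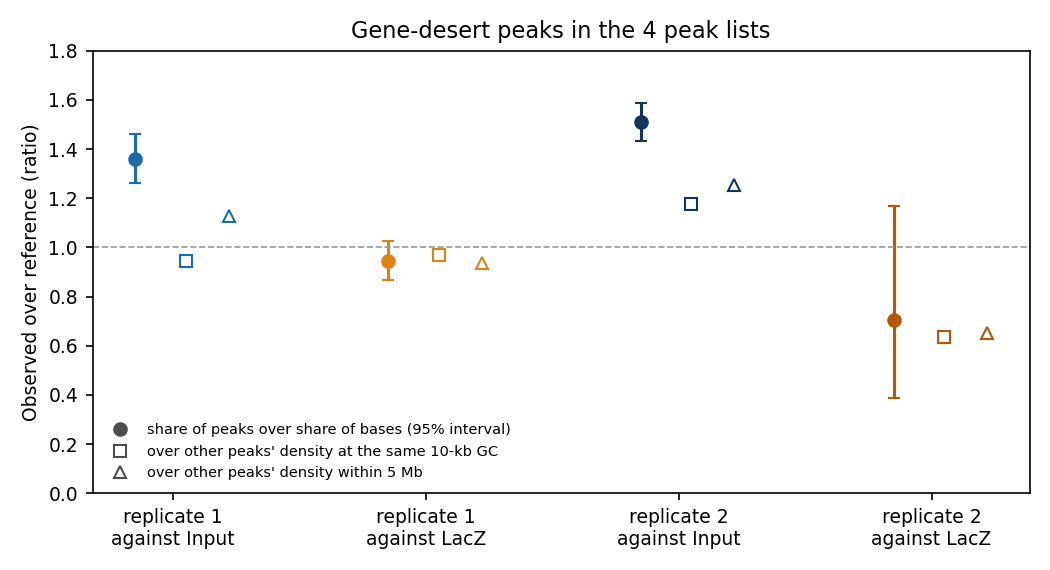
Ratio of desert peaks to a reference (y axis, no unit) for each of the 4 lists (x axis), with filled circles for the share of peaks over the share of bases and their 95% Clopper-Pearson intervals, squares for the number at the same local GC and triangles for the density within 5 Mb. The Input-called circles stand at 1.36 and 1.51 above the line at 1, and the square of R1/Input lies below it at 0.946.

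How far the controls changed which desert peaks were called was examined within each replicate. In replicate 1, 364 desert peaks were called against both controls, always with the same ends. They were 52.8% of the desert peaks called against Input, where 50.2% of all autosomal peaks of the list were also called against LacZ. They were 68.5% of those called against LacZ (64.4 to 72.5), where the same share over the whole list was 45.3%. Peaks that were called against LacZ alone in replicate 1 were rare in deserts, 167 of 5594 or 2.99% (2.56 to 3.47), which was 0.544 times the share of bases. Peaks called against Input alone gave 326 of 4611, 7.07% (6.35 to 7.85), and those called against both gave 7.84% (7.09 to 8.66). In replicate 1 the desert share was thus below the share of bases among the peaks that were called against LacZ but not against Input.

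In replicate 2 only 13 desert peaks were called against both controls. They were 0.943% of the desert peaks called against Input, against 2.06% of that whole list, and 13 of the 14 called against LacZ (92.9%), against 94.7% of that list. The 13 peaks were among the strongest against Input, with scores from 74.02 to 141.86 and a median of 115.6, where the median of all desert peaks was 57.70. Of the 19 desert peaks with a score of at least 100 against Input, 10 were called against LacZ, and of the 1360 weaker ones, 3 were. The exception was a peak at chr2:226230059-226230801, between NYAP2, a neuronal adaptor of phosphoinositide 3-kinase signalling, and IRS1, the insulin receptor substrate, which was called against LacZ only with a score of 53.82.

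Recurrence between replicates was rare. Against Input, 7 desert peaks of replicate 1 overlapped 7 desert peaks of replicate 2, which was 1.01% (0.409 to 2.08) of the replicate 1 peaks and 0.508% (0.204 to 1.04) of the replicate 2 peaks. The same shares over all autosomal peaks were 1.66% and 0.902%. The number of overlaps that peak density and width alone would give was not worked out, so the 7 sites may be no more than that. Against LacZ no desert peak of replicate 1 overlapped one of replicate 2, and a count of 0, taken to allow up to 3 peaks, allows a share of up to 0.565% of 531 peaks and 21.4% of 14 peaks (upper Clopper-Pearson bounds 0.692% and 23.2%). The shares over the whole lists were 0.0586% and 1.66%, so a difference was not detectable with these numbers of peaks.

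The 7 recurrent sites had low to middling scores. Their scores ran from 50.8 to 59.28 in replicate 1 and from 51.31 to 64.76 in replicate 2, where the medians of all desert peaks were 56.24 and 57.70, and none of the desert peaks with a score of at least 100 recurred. The site with the highest scores lay between NCAM2, a neural cell adhesion molecule, and MRPL39, a mitochondrial ribosomal protein, on chromosome 21. It scored 59.28 and 64.76, shared 273 bp, and had 29.5% GC over its replicate 1 peak. The site between TRIB2, a pseudokinase, and LRATD1 on chromosome 2 scored 51.71 and 60.31 and shared 263 bp, which was the whole of the replicate 1 peak. The site between FAM98A and CRIM1, a regulator of bone morphogenetic proteins, lay 1095899 bp from CRIM1 and scored 50.8 and 55.94, with 309 bp shared. Its central 300 bases are printed above.

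The site between FLRT2, an adhesion and axon guidance protein, and GALC, the lysosomal galactosylceramidase, scored 51.93 and 59.85 over 210 shared bp. That between ADGRL2, the adhesion receptor latrophilin 2, and TTLL7, a tubulin polyglutamylase, scored 54.88 and 57.97 over 156 bp. On chromosome 8, at chr8:83441331-83441739 between SNX16, a sorting nexin, and RALYL, an RNA-binding protein, the scores were 57.77 and 51.31 over 409 bp, the longest shared stretch. The shortest, 65 bp, lay between ZP4, an egg coat glycoprotein, and CHRM3, a muscarinic acetylcholine receptor, with scores of 54.68 and 56.58. It was the only recurrent site also called against LacZ in replicate 1 (53.1), and none was called against LacZ in replicate 2. At this site 13.7% of the 24-base words of the replicate 1 peak occur at 10 or more places on the autosomes. The share was 16.4% at the site on chromosome 8 and 13.7% at the FLRT2-GALC site, and it was 0 in both replicates at the other 4 sites, which are those whose sequences are printed above.

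**Figure D4:**
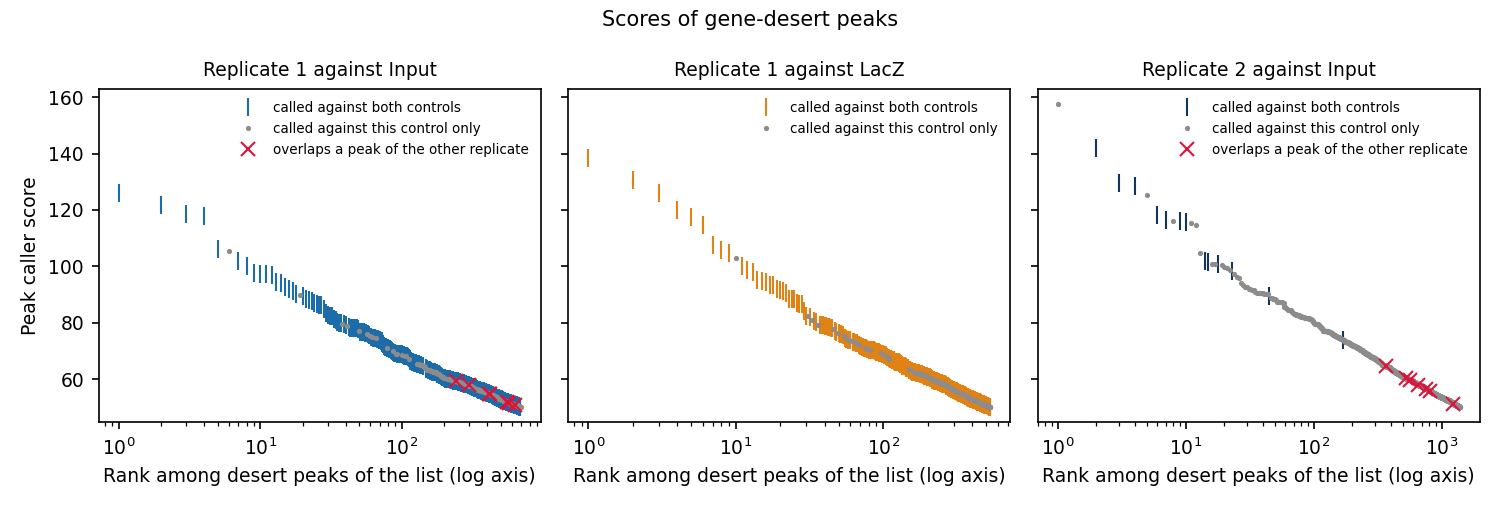
Peak caller score (y axis, scale not stated by the authors) of each desert peak by its rank in the list (x axis, log scale) in the 3 longer lists, with bars for peaks called against both controls, grey dots for peaks called against 1 control and red crosses for the 7 sites shared by both replicates. The crosses lie between 50.8 and 64.76, and in replicate 2 the 13 peaks called against both controls lie at 74.02 or above.

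No desert peak with a score of at least 100 was found in both replicates. Sequences of the 2 strongest of R2/Input follow, as the central 300 bases or the whole peak, from the GRCh38 plus strand, with capitals for bases within 24-base words found at 10 or more places on the autosomes. They are 2 of the 19 desert peaks of that list with such a score and do not stand for the others.
chr14:86477311-86477610, replicate 2, FLRT2-GALC desert: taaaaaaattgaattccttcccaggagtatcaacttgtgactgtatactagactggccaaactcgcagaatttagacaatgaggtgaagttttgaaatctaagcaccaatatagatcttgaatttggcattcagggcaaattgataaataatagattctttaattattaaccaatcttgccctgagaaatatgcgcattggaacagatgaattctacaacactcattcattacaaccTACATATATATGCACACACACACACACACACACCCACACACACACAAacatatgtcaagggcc
chr21:24828369-24828516, replicate 2, NCAM2-MRPL39 desert: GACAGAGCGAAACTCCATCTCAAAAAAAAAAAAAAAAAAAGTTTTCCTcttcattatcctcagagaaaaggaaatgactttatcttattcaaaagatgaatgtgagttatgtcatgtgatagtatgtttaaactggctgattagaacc

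In replicate 1 the peak at chr16:61044684-61045185, 602308 bp from CDH8, a type II cadherin of neurons, scored 126.2 against Input and 138.44 against LacZ, the highest desert score of both lists. It ranked 89 and 23 among all autosomal peaks of these lists. The second against Input lay at chr20:11312252-11312888 between JAG1, a Notch ligand, and BTBD3, with 121.93 against Input and 93.55 against LacZ. The third lay at chr4:181000912-181001258, 1142902 bp from TENM3, a teneurin of neuronal wiring, with 118.66 and 94.6. Against LacZ the next were a peak between CSMD1 and MCPH1 on chromosome 8 with 130.69 and a peak between TSN and CNTNAP5, a contactin-associated protein, on chromosome 2 with 126.2.

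In replicate 2 the strongest against Input was chr14:86477230-86477690, 823032 bp from FLRT2, with a score of 157.54, rank 20 of the list, and no call against LacZ. Its printed sequence holds a CA repeat near its end. The second, chr21:24828369-24828516 in the NCAM2-MRPL39 desert, scored 141.86 against Input and 80.47 against LacZ and was only 148 bp wide. It starts with the A-rich end of a repeated element. The third, chr2:129035765-129036683, lay between HS6ST1, a heparan sulfate sulfotransferase, and RAB6C, with 129.5 and 71.34. The third of the LacZ-called list was chr3:34951697-34951866, 687164 bp from ARPP21, with 68.32 and, against Input, 128.54. None of these peaks overlapped a peak of the other replicate called against the same control.

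Desert by desert, the peaks were spread widely. The 10 deserts with the most positions held 451 of 2237 positions, 20.2%, in 12.04% of the territory. The choice of these deserts by their positions itself favours a share above that of territory. The 44 deserts with at least 1 Mb of territory all had peaks, with a median of 22.5 positions and a density from 7.25 to 44.02 positions per Mb. Over these 44 deserts the densities of R1/Input and of R2/Input had a Spearman correlation of 0.222, a description over deserts of a cell line, which are not replicates. Without chromosome 5 it was 0.166 over 41 deserts. The part of base composition or copy number in these correlations was not tested. R1/Input and R1/LacZ, which share a library, had a correlation of 0.688 over the 44 deserts.

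The desert between CDH9 and CDH6, type II cadherins that hold cells together, led with 94 positions on chromosome 5. It held 20 peaks of R1/Input, 13 of R1/LacZ, 69 of R2/Input and 0 of R2/LacZ. Its neighbour between CDH10 and CDH9 held 11, 7, 34 and 0 peaks, and the one between H3Y1, a primate histone variant, and CDH18 held 10, 7, 21 and 0. All of them lie on the short arm of chromosome 5, where the desert density was 9.98 per Mb in R1/Input, 2.28 times that of the other deserts. It was 31.0 per Mb in R2/Input, 3.69 times, and 6.86 per Mb in R1/LacZ, 2.02 times. R2/LacZ had 0 desert peaks on the arm. Peaks outside deserts were dense on that arm as well, with 9.42 and 19.97 per Mb in the Input-called lists, against 3.29 and 5.86 outside deserts over all autosomes. In R1/LacZ these densities were 9.42 and 3.72. The part of copy number or of any other property of the arm in these values was not tested. Without the arm the ratios of desert share to base share were 1.35 and 1.45 against Input and 0.939 and 0.773 against LacZ.

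All deserts named here and in the next paragraph were chosen for many or dense peaks, and that choice favours densities above those around them. On other chromosomes the desert between SORCS1, a sorting receptor, and XPNPEP1, an aminopeptidase, on chromosome 10 was denser than its own surroundings in the 3 longer lists. It held 15, 7, 26 and 0 peaks in 1.05 Mb of territory, in the order of lists used above. Its density in R1/Input was 14.3 per Mb, where non-desert sequence within 5 Mb had 5.32, and in R2/Input it was 24.7 against 7.73. In R1/LacZ it was 6.66 against 3.48. The desert between CSMD3 and TRPS1, a GATA-type repressor, on chromosome 8 had 10.7 per Mb in R1/Input, where its surroundings had 11.4, but 29.0 in replicate 2, where they had 12.6. For these 2 deserts the part of copy number was not tested either.

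The desert between SEL1L, of endoplasmic reticulum protein disposal, and FLRT2 on chromosome 14 held 17, 12, 32 and 1 peaks. Its densities of 6.30 and 11.9 per Mb against Input lay above the 3.87 and 7.10 around it. The desert between CELF4, an RNA-binding protein of neurons, and PIK3C3, the class III phosphoinositide 3-kinase, held 10, 9, 26 and 0. That between IGFBP7 and ADGRL3, the adhesion receptor latrophilin 3, held 12, 11, 21 and 0, and that between SPRY2, an inhibitor of receptor tyrosine kinase signalling, and SLITRK1, a synaptic adhesion protein, held 13, 8, 18 and 0. The desert between PCDH7, a protocadherin, and ARAP2 is the widest and held 9, 9, 21 and 0. Among the 5 densest of at least 1 Mb were also PCDH9-KLHL1, with 21.2 positions per Mb, and FLRT2-GALC, with 17.9. Over the 44 larger deserts, 26 were denser than their surroundings in R1/Input, 31 in R2/Input and 20 in R1/LacZ.

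**Figure D5:**
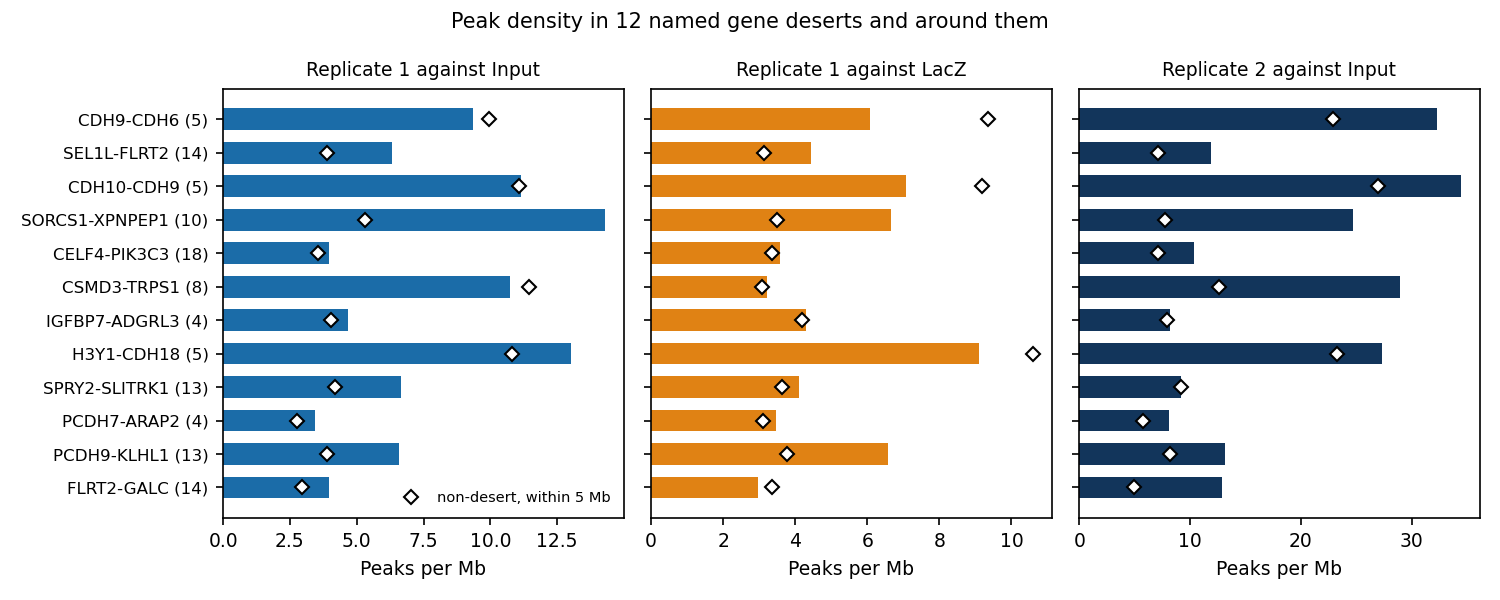
Peaks per Mb (x axis) in the 12 deserts named for their number or density of peaks (y axis, with the chromosome in brackets) as bars, and in non-desert sequence within 5 Mb as diamonds, for the 3 longer lists. The diamonds of the chromosome 5 deserts are high as well, at 9.95 in R1/Input for CDH9-CDH6, whereas SORCS1-XPNPEP1 stands at 14.3 against 5.32 and at 24.7 against 7.73 in the Input-called lists.

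The genes beside the deserts were described by lists. Of 91 cadherins and protocadherins, 18 flank a desert, and these deserts make up 14.1% of the territory. They held 15.5% of the desert peaks of R1/Input, 15.6% of R1/LacZ and 19.1% of R2/Input. Leaders were CDH9 with 140 positions in its deserts, CDH6 with 94, PCDH7 with 53 and PCDH9 with 47. Without the short arm of chromosome 5 their territory share was 11.8% and their peak shares were 10.3%, 11.2% and 11.4%, so the higher share of replicate 2 lay on that arm. Of 41 neural adhesion and synapse genes, 24 flank a desert. Their deserts make up 19.6% of the territory and held 17.7%, 19.6% and 19.4% of the peaks of these 3 lists. FLRT2 led with 72 positions, followed by SLITRK5 with 47, SLITRK1 with 45 and LRRC4C, a netrin-G ligand, with 36.

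Of 38 developmental transcription factors, 16 flank a desert, with 4.84% of the territory and 5.22%, 5.65% and 4.93% of the peaks. SOX9, a factor of cartilage and of the intestinal crypt, had 20 positions in its desert, ZEB2, a repressor of E-cadherin, had 17 and IRX1 had 12. None of the 15 genes that the study singled out or tested flanks a desert. Read against the shares of territory in the 3 longer lists, the widest gap was that of the cadherin deserts in R2/Input. It was 19.1% of peaks on 14.1% of territory, and was not present without the short arm of chromosome 5. R2/LacZ, with 14 desert peaks, is left out of this ranking.

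Sequence features were compared between the central 400 bp of desert peaks and the windows of desert territory. Runs of at least 15 A or T, on either strand, stood in 3.27% of windows and in 11.9% (9.56 to 14.5) of the desert peaks of R1/Input, 14.3% (11.4 to 17.6) of R1/LacZ and 9.43% (7.94 to 11.1) of R2/Input. The share among peaks outside deserts was 15.4%, 18.7% and 16.2%. Repeats of at least 10 CA or TG units stood in 1.07% of windows and in 2.90% (1.78 to 4.44), 3.95% (2.46 to 5.98) and 2.18% (1.47 to 3.09) of the desert peaks of these lists, against 1.69%, 1.98% and 2.11% of the other peaks. The letters CCCC or GGGG, the kind of C-rich stretch that hnRNPK (a protein that the study links to CRLM1) is known to bind, stood in 60.5% of windows and in 62.2%, 61.8% and 57.4% of desert peaks, against 65.9%, 74.1% and 69.1% of the other peaks.

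Few desert peaks lay mostly in sequence with many copies. More than 50% of the 24-base words were found at 10 or more places in 6.46% of territory windows, but in 1.59%, 2.45% and 1.81% of the desert peaks of R1/Input, R1/LacZ and R2/Input. Among the other peaks of these lists the shares were 3.85%, 5.41% and 4.38%. Reads from sequence with many copies are hard to place, and the part of this in these shares was not tested. A match to a LINC01767 transcript of at least 40 bits in blastn was found in 5.18% of windows and in 7.83%, 9.60% and 6.89% of desert peaks, below the 10.1%, 15.7% and 13.2% of the other peaks. No desert peak and no window matched 1 of the 9 CRLM1 capture oligos at that level.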

How the data were processed

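The members and gene lists were chosen with earlier results of these data known. Per the study's methods and processing notes, the authors trimmed reads with cutadapt, aligned them to GRCh38 with Bowtie2 and called peaks per replicate with MACS2 against Input at a q threshold. Those methods do not describe the LacZ-called lists, and the files themselves name MACS without a version. The deposited lists give start, end (other columns, 1-based here) and a score, whose scale is not stated, so the caller version behind them was not settled. Depth is unknown.

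Gene models were those of GENCODE release 44. Centromere blocks were found from the sequence, as windows of 10 kb that repeat with a unit of 150 to 4000 bases (autocorrelation of at least 0.25), since the period of alpha satellite alone, the first choice, missed some of them. Territory excluded assembly gaps. GC was read over peaks and windows of 400 bp. Python 3.11.15, numpy 2.4.6, scipy 1.17.1 and blastn 2.17.0+ were used, and interval and word counts were tested on simulated data. Named were all recurrent peaks, the 3 highest scores per list, the 10 deserts with most positions, the 5 densest with at least 1 Mb and 5 peaks, and up to 4 genes per list. Alternatives covered distance, lncRNA genes, centromere margin, score, peak position, overlap and single deserts. No tests were made across peaks, which are not replicates. Some items are not reported here.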

Additional observations from a re-analysis of the deposited data

Results flagged for a closer look

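The lists differed by the control in both replicates. The ratio of the desert share of peaks to the desert share of bases was 1.36 in replicate 1 and 1.51 in replicate 2 against Input, above 1 in both, and 0.945 in replicate 1 and 0.706 in replicate 2 against LacZ, below 1 in both. At the same local GC, an alternative chosen after seeing the data, the ratio of replicate 1 against Input was 0.946, below 1. That of replicate 2 against Input was 1.18, still above 1. The difference between the controls was not tested, the LacZ-called intervals include 1, and the lists of a replicate share their pull-down library.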

How the results depend on the processing

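Peak lists without read counts, 2 replicates and a score of unstated scale limit every value here. No paired analysis was possible because the results come from no test, and with 2 pairs an exact permutation test cannot go below 0.5, so the values of each replicate stand side by side. With other distances, lncRNA genes, margins, scores, peak positions or without the fullest desert, the ratio of desert share to base share stayed on its side of 1 in all 4 lists. Of 32 recomputed ratios, 27 moved by less than the 95% interval. The mean ratio without replicate 1 or 2 ran from 1.36 to 1.51 against Input and from 0.706 to 0.945 against LacZ.

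More than 1 Mb from genes, the ratio was 1.23 in replicate 1 and 1.41 in R2/Input (mean 1.32) and 0.335 in R2/LacZ (LacZ mean 0.607). The score difference was then 0.36, -0.59 and -0.29 in R1/Input, R1/LacZ and R2/Input, and the GC difference 1.41 and 4.41 points in the LacZ-called lists of replicates 1 and 2. More than 250 kb from genes, the ratio of R2/Input was 1.41, the GC differences were 1.26 and 0.558 against LacZ and turned to -0.297 in R2/Input, and the score difference turned to -0.305 in R1/Input and 0.575 in R2/LacZ. With lncRNA genes kept, these score differences turned to -0.13 and 1.06, and the GC difference of R2/LacZ was 0.977. With a centromere margin of 5 Mb, the GC differences against LacZ were 1.91 and 1.799, and the score difference of replicate 2 was -1.63.

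With scores of at least 60, the ratio of R1/Input was 1.26 and recurrence against Input was 0% in both replicates. The score difference turned to -0.78 in R1/Input and 1.51 in R2/LacZ, and was -0.78 in R1/LacZ and 0.21 in R2/Input. The GC difference of R2/LacZ turned to -0.042. With scores at or above the list's median, recurrence against Input was 0.284% and 0.145%. The score difference turned to -1.50 in R1/Input and 1.01 in R2/LacZ, was -0.905 in R1/LacZ and -0.4 in R2/Input, and the GC difference of R2/LacZ turned to -0.297. When a peak within 1 kb counted as shared, recurrence against Input was 2.32% and 1.16%. The cause of these changes was not tested.

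Further alternatives were chosen after seeing the data. At the same local GC, the ratio against Input turned to 0.946 in replicate 1 and was 1.18 in replicate 2 (mean 1.06). With classes of 1 point it was 0.943 and 1.16 (mean 1.05), and without centromere margins 0.917 and 1.13 (mean 1.02). Against the density within 5 Mb it was 1.13 and 1.25 (mean 1.19).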
